A study of Mus musculus with 4 samples.

Results

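Transcripts of the glycolytic enzymes were measured on Illumina bead arrays in NIH-3T3 fibroblasts, a permanent line from mouse embryos. The enzymes were Gpi1, Pfkl, Pfkp, Aldoa, Tpi1, Gapdh, Pgk1, Pgam1, Eno1 and Ldha, and every probe whose platform symbol was one of these 10 was taken, whatever its signal. That gave 14 of the 25697 probes, for 8 of the 10 genes (8 of 16593 genes with a probe). The comparison set fibroblasts that had received microvesicles against control fibroblasts (2 arrays each). The microvesicles, small membrane particles that cells shed, came from cardiomyocyte culture medium. All cultures were in Claycomb medium, and total RNA was amplified and labelled with Cy3. The age, passage and dose of microvesicles were not given in the sources used here. Nothing in the labels says that replicates came from separate cultures. The p-values then cover the spread between these arrays alone, which may be technical. The 4 arrays lay on 1 chip, and 0 of its positions held both groups, so position and group cannot be told apart.

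Glycolysis splits glucose into pyruvate in the cytosol and yields ATP and NADH. Phosphofructokinase commits the sugar to the pathway, the enzymes from triosephosphate isomerase to enolase carry the triose stage, and lactate dehydrogenase returns NADH to NAD by reducing pyruvate to lactate. Fibroblasts in culture release much lactate, and Gapdh, the gene of glyceraldehyde-3-phosphate dehydrogenase, is widely used as a reference transcript.

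No glycolytic enzyme passed the test. Of the 14 probes, 7 were detected well enough to be tested, and 0 of these 7 changed (limma, adjusted p under 0.05 over all probes tested), against 7.55% of all 3762 probes tested (3.43% higher and 4.12% lower with microvesicles). At an unadjusted p under 0.05 there were 3 of the 7, Tpi1, Pfkl and 1 probe of Gapdh, against 24.8% of all probes tested. The signals went both ways, with log2 fold changes (microvesicles minus control) between -0.81 for Pfkl and 0.61 for a Gapdh probe. Their median was 0.18 against -0.06 over all probes tested, and it was -0.51 when the arrays were aligned on the median of all their probes, so the direction of the group as a whole was not settled. Among the glycolytic probes with ample signal, 1 of Tpi1 stayed below control under every background, scaling and omission of an array tried. All of these settings drew on the same 4 arrays. The 2 other Tpi1 probes were not detected. How many of all kept probes held 1 sign in this way was not counted.

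The arrays were dim and unequal in brightness. The 95th percentile of raw signal was 75.1 and 59.6 on the microvesicle arrays, against 76.2 and 115 on the control arrays. Between 3757 and 5272 probes were detected per array (detection p under 0.05 against the negative controls). Of the kept probes, 55.5% were lower in raw signal on both microvesicle arrays than on both control arrays, so values below are also given after quantile normalization on a log2 scale. A probe was kept when it was detected on both arrays of at least 1 group. Of the fibroblast markers, 8 of 15 probes were kept, among them collagens, Sparc, Vim and Thy1, and of these 1 rose (Sparc, log2 fold change 0.82) and 1 fell (Col6a1, -1.05), against 3.43% and 4.12% of all probes tested. Neither passed without any 1 array, with no detection filter or with arrays aligned on all probes or on Gapdh, and Sparc did not pass with arrays aligned on the kept probes. Of 17 cardiomyocyte marker probes, 14 were detected on no array and 2 were kept. The summed raw signal of the 17 was 664 to 689 on microvesicle arrays and 701 to 725 on control arrays, and neither kept probe passed. Most of the summed probes were at background. The median of all probes was also lower with microvesicles, at 39.9 and 40.2 against 41.1 and 41.2 in control. Of the macrophage and leukocyte markers 0 of 8 probes were kept, of the endothelial markers 0 of 5 and of the adipocyte markers 1 of 4, which did not pass.

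**Figure D1:**
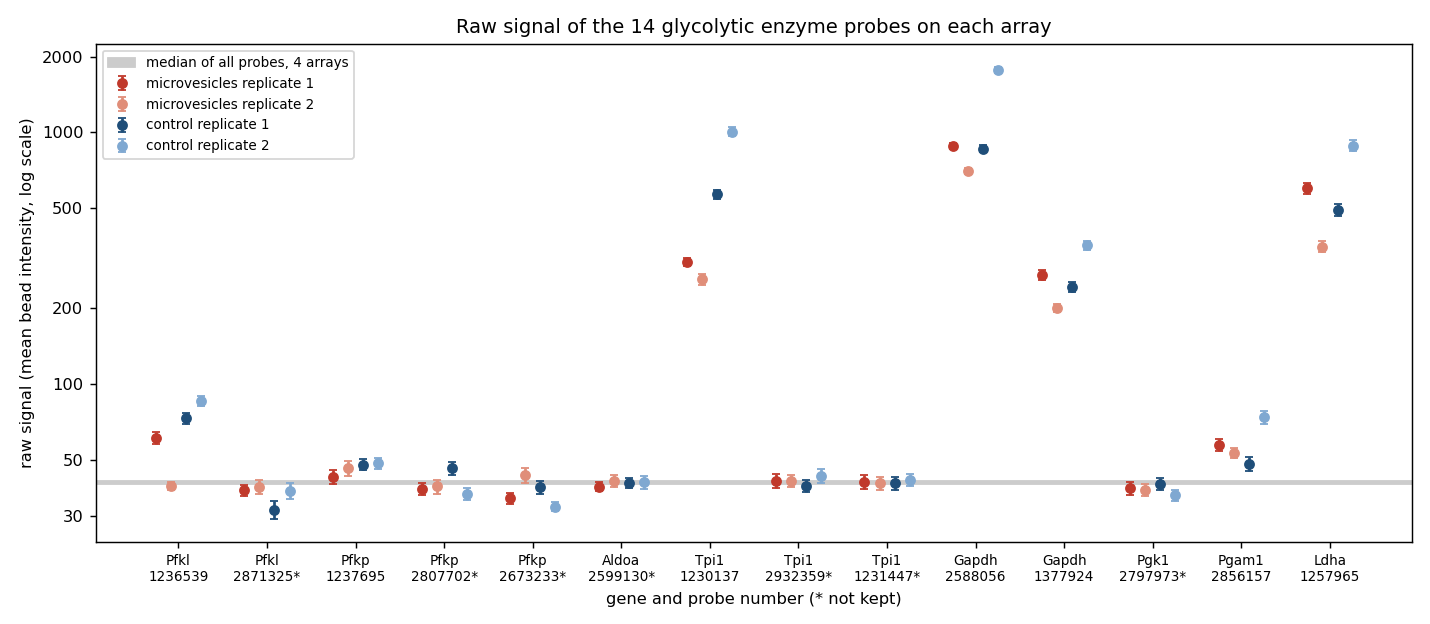
Raw signal (mean bead intensity, log axis) of each of the 14 probes on the 2 microvesicle arrays and the 2 control arrays, with bars for the standard error over the beads of the probe. The 7 probes marked with an asterisk lie between 31.7 and 46.2 on all arrays, around the grey band of array medians, while Tpi1, Gapdh and Ldha stand far above it.

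Aldolase and phosphoglycerate kinase left no usable signal. Aldoa, which encodes the aldolase of muscle and of most dividing cells, had raw signals of 39.0 and 41.2 on microvesicle arrays and 40.5 and 40.7 on control arrays. Pgk1, which encodes a phosphoglycerate kinase that makes ATP in the triose stage, had 38.6 and 38.0 on microvesicle arrays and 40.2 and 36.1 on control arrays. Each has a single probe, and neither was detected on any array. The other 5 probes that were not kept were 1 of Pfkl, 2 of Pfkp and 2 of Tpi1. Over the 7 probes not kept, signals ran from 31.7 to 46.2 and detection p-values from 0.051 to 0.995. Such dim signals do not tell an absent transcript from a scarce one, or from a probe that reads its transcript poorly. The 2 Tpi1 probes here were at background on arrays where another Tpi1 probe read 261 to 1006. Gpi1, the glucose-6-phosphate isomerase gene, and Eno1, the main enolase gene of dividing cells, had no probe under these symbols and were not analysed here. A probe of Eno1b, a close copy of Eno1 that was looked up after the values had been seen, was not detected on any array, with 39.7 and 33.3 on microvesicle arrays and 37.1 and 34.5 on control arrays.

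Pfkl encodes the liver-type subunit of phosphofructokinase. On probe ILMN_1236539 its raw signal was 61.0 and 39.3 on microvesicle replicates 1 and 2 and 73.2 and 85.4 on control replicates 1 and 2. Microvesicle replicate 2 did not detect it, so the lower value there is a signal at background. The normalized log2 signals were 5.31 and 4.21 with microvesicles and 5.76 and 5.37 in control, with no overlap but with a gap of 0.06 at its narrowest. This gave a log2 fold change of -0.81 (SE 0.34, 95% interval -1.59 to -0.02, limma adjusted p = 0.19). It was -0.27 without microvesicle replicate 2. Without microvesicle replicate 1 the array left in that group did not detect Pfkl, so no value is given. The probe was kept only through the control arrays, where it was high, so the filter favoured a lower value with microvesicles. Pfkl passed only with trend and robust variance estimation (limma adjusted p = 0.045), and no support is drawn from that call. Its other probe, ILMN_2871325, had 37.8 and 39.1 with microvesicles and 31.7 and 37.6 in control and was not detected.

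Pfkp encodes the platelet-type subunit of the same enzyme, and 1 of its 3 probes was kept. Probe ILMN_1237695 had raw signals of 42.8 and 46.2 on microvesicle arrays and 47.9 and 48.4 on control arrays, and microvesicle replicate 1 did not detect it. It was the 1 kept glycolytic probe whose groups overlapped after normalization. Its log2 fold change was -0.02 (SE 0.19, 95% interval -0.45 to 0.42, limma adjusted p = 0.964). With signals this close to the array medians, a change in this transcript could be missed.

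Tpi1 encodes triosephosphate isomerase, which interconverts the triose phosphates that aldolase makes. Probe ILMN_1230137 had raw signals of 306 and 261 on microvesicle replicates 1 and 2 and 568 and 1006 on control replicates 1 and 2. The bead standard errors were 12.3 and 13.2 with microvesicles and 23.1 and 42.5 in control, over 37 to 49 beads, so each array's own reading was precise and the spread was between arrays. Both microvesicle arrays lay below both control arrays before any scaling, as they did for 55.5% of all kept probes. Normalized log2 signals were 8.50 and 8.81 with microvesicles and 9.36 and 9.09 in control, again without overlap. On that scale 32.7% of all kept probes were lower on both microvesicle arrays. The means were 8.65 ± 0.21 with microvesicles and 9.22 ± 0.19 in control (SD, n = 2). The log2 fold change was -0.57 (SE 0.20), a ratio of 0.673 with a 95% interval of 0.488 to 0.928 (limma adjusted p = 0.129). The submitters' processed values were 341 and 424 with microvesicles and 623 and 523 in control, and gave a log2 fold change of -0.56. The value was negative under all 15 alternative settings, between -1.46 and -0.41. Those that changed only the detection filter, the variance model or the replicate block left it at -0.57 by construction. It passed in 1 of them, where arrays were aligned on the median of the kept probes (-1.02, limma adjusted p = 0.0122). The other Tpi1 probes, ILMN_2932359 and ILMN_1231447, had signals between 39.4 and 43.2 on all 4 arrays and were not detected, so the Tpi1 values rest on a single probe.

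Gapdh, whose product oxidizes glyceraldehyde-3-phosphate and makes NADH, was read by a pair of probes that differed in the size of their difference. Probe ILMN_2588056 had raw signals of 885 and 705 on microvesicle arrays and 861 and 1776 on control arrays, with 126 to 135 beads. Its normalized log2 signals were 10.02 and 10.27 with microvesicles and 9.97 on each control array. The log2 fold change was 0.18 (SE 0.18, 95% interval -0.25 to 0.60, limma adjusted p = 0.571). Control replicate 2 thus read about as much Gapdh as control replicate 1 after normalization, though its raw signal was far higher.

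Probe ILMN_1377924 of Gapdh had raw signals of 272 and 200 on microvesicle arrays and 243 and 356 on control arrays. Its normalized log2 signals were 8.30 and 8.44 with microvesicles and 7.97 and 7.55 in control. Both microvesicle arrays were above both controls after normalization, and the groups overlapped before it. The log2 fold change was 0.61 (SE 0.21), a ratio of 1.53 with a 95% interval of 1.10 to 2.12 (limma adjusted p = 0.118). It did not pass in any setting, and the alignment on all-probe medians gave -0.32. Mouse cells carry many processed copies of Gapdh, and whether either probe reads them was not tested, since probe sequences were not used here.

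Pgam1 encodes phosphoglycerate mutase, which moves the phosphate of 3-phosphoglycerate. Its raw signals were 57.2 and 53.2 on microvesicle arrays and 48.1 and 73.9 on control arrays, detected on all 4. Normalized log2 signals were 5.15 and 5.43 with microvesicles and 4.56 and 5.13 in control. The groups were separated by 0.01, with the control replicates further apart than the microvesicle replicates. Its log2 fold change was 0.44 (SE 0.24, 95% interval -0.10 to 0.98, limma adjusted p = 0.288), and it was 0.16 without control replicate 1.

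Ldha encodes the muscle-type subunit of lactate dehydrogenase. Raw signals were 599 and 351 on microvesicle arrays and 492 and 886 on control arrays. Normalized log2 signals were 9.38 and 9.23 with microvesicles and 9.12 and 8.89 in control. Both microvesicle arrays lay above both controls on that scale, by 0.11 at the nearest. The difference was 0.30 in log2 units (SE 0.19), a ratio of 1.23 with a 95% interval of 0.917 to 1.66 (limma adjusted p = 0.342). The alignment on all-probe medians gave -0.51.

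**Figure D2:**
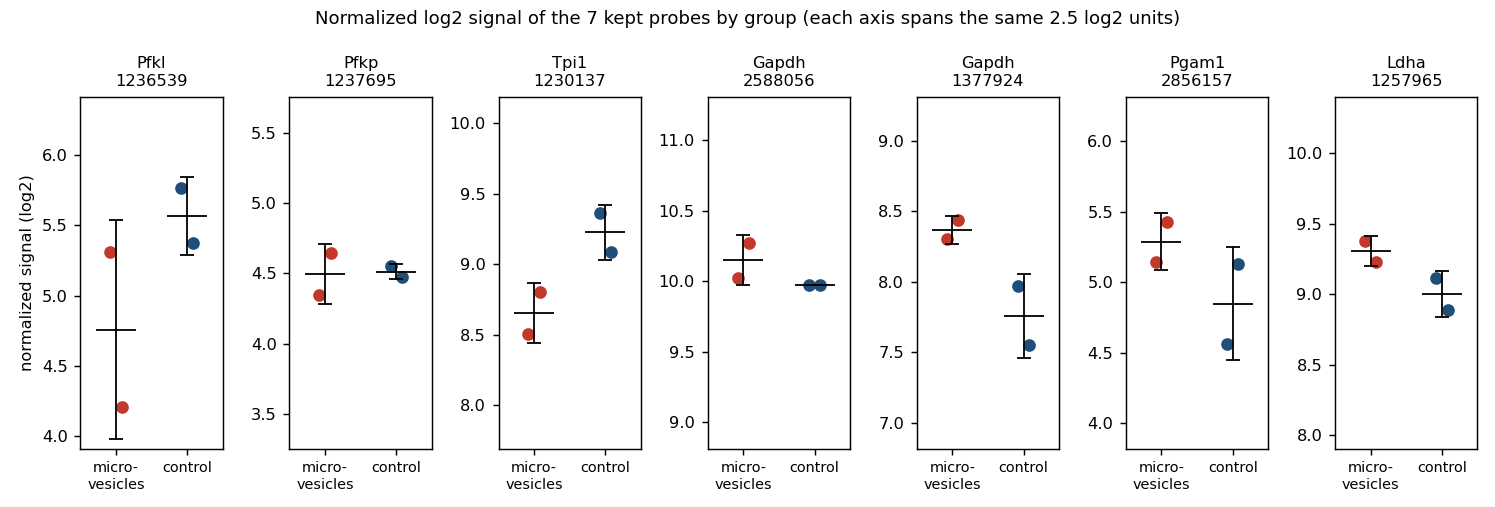
Normalized log2 signal of the 7 kept probes, with 1 point per array, microvesicles left of control, and black marks for the mean and SD (n = 2). Each panel spans the same number of log2 units. Pfkl and Tpi1 have both microvesicle arrays below control, Pfkp overlaps, and the Gapdh probes, Pgam1 and Ldha have both above control, with 0 of 7 passing the test.

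After normalization the groups did not overlap in 6 of the 7 kept glycolytic probes, against 57.5% of all kept probes. Of the 7, 4 were higher on both microvesicle arrays, against 24.9% of all kept probes, and 2 were lower on both, against 32.7%. The filter favours probes that are high on both arrays of a group, so these shares describe the probes that passed it and not the pathway. The median absolute log2 fold change was 0.44 over the 7 probes and 0.27 over all kept probes.

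Each kept probe was also read against Gapdh probe ILMN_2588056 of its own array, a reading chosen after the values had been seen. After background correction with no offset added and no scaling between arrays, the log2 difference between Tpi1 and Gapdh was -1.67 and -1.59 on microvesicle arrays and -0.64 and -0.85 on control arrays. The groups were apart by more than the replicates of either, and the mean differed by -0.89. On that scale 34.4% of all other kept probes were lower on both microvesicle arrays than on both controls, and 16.1% were higher. With the offset of 16 that the normalized values carry, the mean differed by -0.84 and this share was 19.0%. It was -0.75 after quantile normalization and -0.78 in the submitters' values, with no overlap between groups on any of these 4 scales. The share of the other kept probes that did the same was not taken after quantile normalization or in the submitters' values. All of these scales use the same 4 arrays. In fits aligned on Gapdh, Tpi1 did not pass (limma adjusted p = 0.335 with no offset and 0.347 with it). Such a difference does not say which of the pair changed. Between 2 arrays and 2 arrays an exact two-sided permutation test cannot give a p below 0.33 and was not used.

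The other enzymes read against Gapdh gave no separation that held on all 4 scales. Ldha was -0.59 and -1.10 with microvesicles and -0.86 and -1.04 in control with no offset, a mean difference of 0.10, and its groups overlapped on all 4. The second Gapdh probe overlapped with no offset (0.28) and with it (0.30), and was higher on both microvesicle arrays after quantile normalization (0.43) and in the submitters' values (0.38). The dim probes depended most on the scale. Pgam1 was -5.58 and -5.73 with microvesicles and -6.78 and -5.70 in control with no offset, so the groups overlapped. With the offset, Pgam1 was higher on both microvesicle arrays by a mean of 0.53, where 24.7% of the other kept probes were also higher on both, and it overlapped again on the other scales. Pfkl was lower on both microvesicle arrays on 3 scales and overlapped with the offset. Microvesicle replicate 2 did not detect Pfkl, so its reading there is background and not a measured ratio. With no offset, 34.4% of the other kept probes were also lower on both. Pfkp, which microvesicle replicate 1 did not detect, overlapped at 0.04 with no offset and at 0.49 with it. It was lower on both microvesicle arrays after quantile normalization (-0.19) and in the submitters' values (-0.24).

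**Figure D3:**
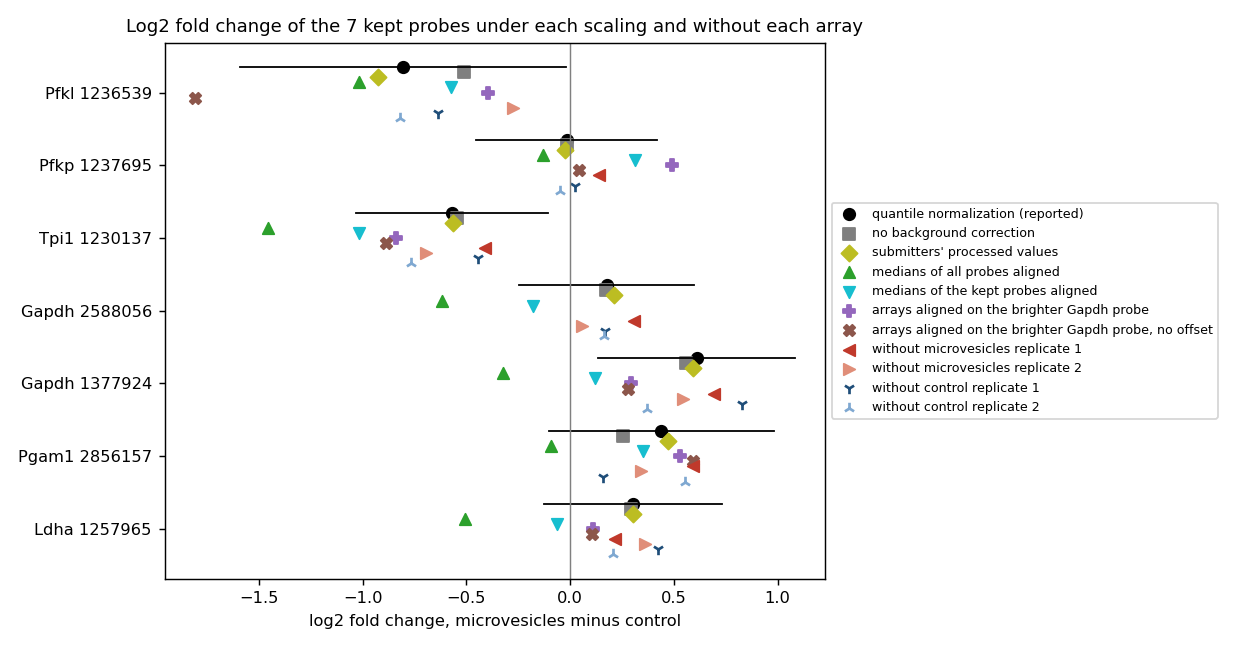
Log2 fold change (microvesicles minus control) of the 7 kept probes, with quantile normalization as black circles and its 95% interval as a line, and other symbols for other backgrounds, scalings or the loss of 1 array (not drawn where the array left in a group did not detect the probe). Pfkl and Tpi1 stay left of 0 throughout, while Gapdh, Pgam1 and Ldha lie left of 0 when arrays are aligned on the median of all probes.

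The other isozymes of the pathway, which take its steps in other tissues or carry steps without a member here, did not pass either as reported. Of 21 probes for 15 such genes, 13 were detected on no array and 8 were kept, with 0 higher and 0 lower. Their median log2 fold change was -0.23 (-0.21 when the 2 probes undetected in 1 group were set at their bounds). The muscle-type phosphofructokinase gene Pfkm had the largest absolute value, with raw signals of 64.8 and 49.1 on microvesicle arrays and 72.8 and 134 on control arrays. Its log2 fold change was -0.66 on that probe (limma adjusted p = 0.111), 0.21 on another (adjusted p = 0.484) and -0.51 on the third (adjusted p = 0.384). The probe at 0.21 was kept only through the microvesicle arrays and that at -0.51 only through the control arrays, so the filter favoured each sign. Only the probe at -0.66 was detected on all 4 arrays, so nothing is drawn from the unlike signs. Pkm, the pyruvate kinase gene, was -0.21 (adjusted p = 0.481) and Hk2, a hexokinase gene, was -0.16 (adjusted p = 0.678). The Pkm probe was also kept only through the control arrays. On 1 of its 3 probes Pklr, the liver and red cell pyruvate kinase gene, was undetected on the control arrays and detected on both others, at least 1.29-fold higher with microvesicles (adjusted p = 0.213), and its other probes were detected on no array. Eno3, the muscle enolase gene, was undetected on the microvesicle arrays and detected in both controls, at least 1.16-fold lower with microvesicles (adjusted p = 0.169). That Eno3 probe was kept only through the control arrays, where it was high, so the filter favoured a lower value with microvesicles. It passed with trend and robust estimation (limma adjusted p = 0.012), the 1 call among these isozymes in any setting. No support is drawn from that call.

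Genes at the entry, the exit and the branches of glycolysis were tested as well. Of 13 probes for glucose and lactate carriers, 2 were kept, both of the glucose carrier gene Slc2a8. It was at least 1.31-fold higher on 1 probe (limma adjusted p = 0.149), which neither control array detected. That probe was kept only through the microvesicle arrays, so the filter favoured a higher value. The other Slc2a8 probe had a log2 fold change of -0.21. Of 18 probes for flux regulators and pyruvate dehydrogenase, 2 were kept and 0 passed, with the phosphatase gene Pdp2 at 0.45 (adjusted p = 0.159). The Pdp2 probe was also kept only through the microvesicle arrays, so the filter favoured a higher value there too. In the pentose phosphate pathway 3 were kept and 0 passed, with the transketolase gene Tkt at -0.53 (adjusted p = 0.133). The branches from glycolytic intermediates had 3 kept and 0 passing, with the hexosamine gene Gfpt2 at -0.26 (adjusted p = 0.521). The tricarboxylic acid cycle had 5 kept and 0 passing, with Dlst, a subunit gene of the oxoglutarate dehydrogenase complex, at -0.20 (adjusted p = 0.575). The median log2 fold changes of these lists were 0.13 for the carriers (0.09 with the undetected probe at its bound), 0.40 for the flux regulators, -0.12 for the pentose phosphate pathway, 0.06 for the branches and -0.10 for the cycle.

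Hypoxia-inducible factors and Myc are known to raise transcription of many glycolytic genes. Of 36 probes for these factors and for targets they share, 27 were detected on no array, 5 were kept, 0 rose and 1 fell (against 3.43% and 4.12% of all probes tested), and the median was -0.25. The probe that fell was 1 of the 3 of Kdm3a, a histone demethylase gene induced by hypoxia. Its raw signals were 104 and 76.4 on microvesicle arrays and 188 and 432 on control arrays. Its normalized log2 signal was 6.55 ± 0.01 with microvesicles and 7.68 ± 0.25 in control (SD, n = 2), a log2 fold change of -1.14 (SE 0.19, limma adjusted p = 0.0155). The other Kdm3a probes were detected on no array. The value was negative in all 15 alternative settings and passed in 8. Settings that changed only the detection filter, the variance model or the replicate block left it at -1.14 by construction. It did not pass without any 1 array (-1.31 to -0.93). Vegfa (-0.34), Ddit4 (-0.25), P4ha2 (0.11) and Hif3a (0.20) did not pass. Vegfa and Ddit4 were kept only through the control arrays and Hif3a only through the microvesicle arrays, so the filter favoured their signs.

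**Figure D4:**
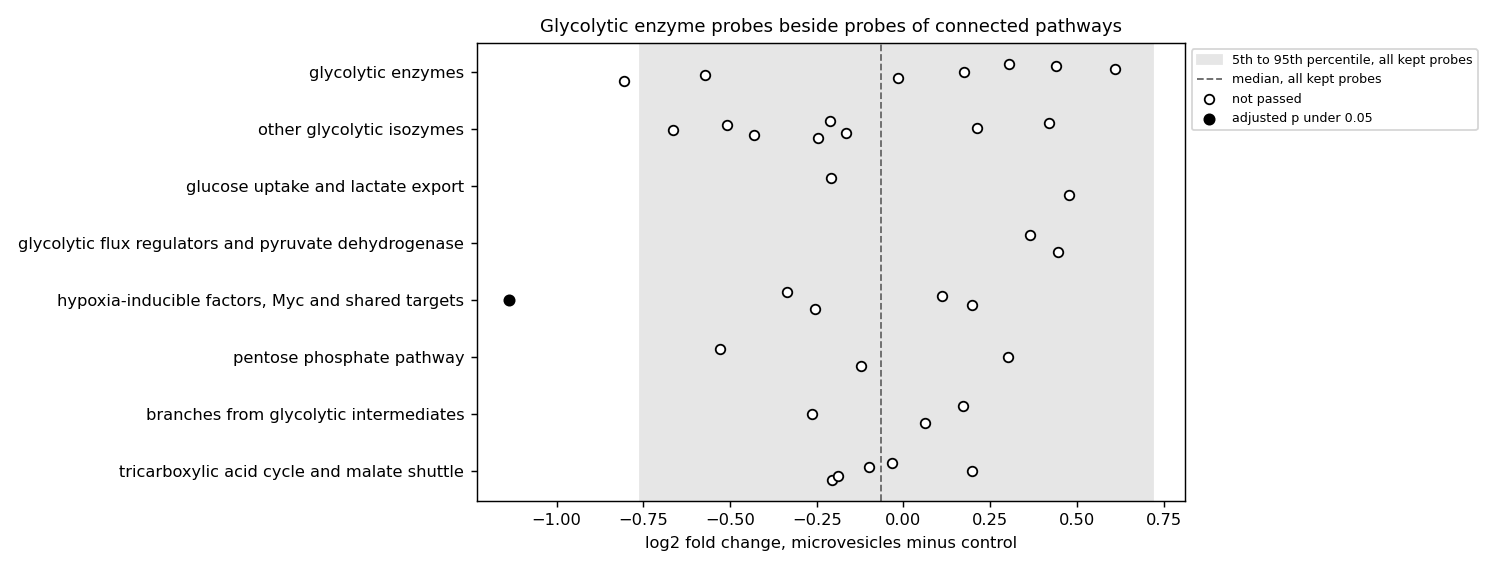
Log2 fold change (microvesicles minus control) of each kept probe of the glycolytic enzymes and of 7 connected gene lists, with the dashed line at the median and the grey band over the 5th to 95th percentile of all kept probes. Kdm3a at -1.14 is the 1 filled point, the only probe shown that passed.

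The median of the 7 kept probes, each centred on its own mean, was 0.08 and 0.14 on microvesicle arrays and -0.04 and -0.03 on control arrays in log2 units. The probes went both ways, which puts such a median near 0. The genes nearest to it by Euclidean distance over these 4 values were Pcbp3 (0.081), Lpar3 (0.081), Pink1 (0.082), Slc9a3r2 (0.086) and Cplx4 (0.088).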

How the data were processed

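Total RNA of 4 samples was read on 4 arrays. As deposited, the non-normalized table has intensity values (mean bead brightness per probe, no background subtracted) with detection p-values against negative controls, bead counts and bead standard errors, made by the authors in BeadStudio 3.3 per the labels. The deposited processed table holds intensity values that are background-subtracted and scaled between arrays by a method not given in the sources used here. It was an alternative.

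The raw signals were processed with limma 3.58.1 under R 4.3.3. Its function neqc removed background as estimated through the detection p-values. It then applied an offset of 16, quantile normalization and log2. The offset compresses fold changes of dim probes. Probes with detection p under 0.05 on both arrays of a group were kept, 3762 of 25697 (14.6%). Group was the only term in lmFit and eBayes, two-sided, with Benjamini-Hochberg adjustment over all kept probes and a threshold of 0.05. Probes of 1 gene were never averaged. A probe undetected on both arrays of a group was given as at least N-fold, against the higher of its own signal and the lowest detected signal of each array. That bound takes no account of the spread between arrays. Such a probe was kept only through the group that detected it, so the filter favoured a difference of that sign. A kept probe undetected on 1 array of a group was likewise kept only through the other group, with the same limit. The platform table gave 1 symbol for 23978 probes, and 14 of 14 glycolytic probes matched a RefSeq gene. The fit was tested on simulated data.

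The genes and the 12 gene lists were chosen with earlier results of these data known. The text names all glycolytic probes, and in each other pathway list the probes that passed or, where none did, that with the largest absolute change. Other genes named were chosen after their values were seen. Alternatives were no background correction, other scalings, the processed values, other detection filters, another variance model, a replicate block and leaving out each array. Precision is limited by there being 2 arrays a group.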

Additional observations from a re-analysis of the deposited data

How the results depend on the processing

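The crossed block and the alignments on Gapdh were chosen after seeing the data. Over all kept probes, 284 passed (129 higher, 155 lower) as reported, 0 after alignment on the median of all probes (398 unadjusted), 29 with no detection filter, 593 with trend and robust estimation, 71 with arrays aligned on Gapdh probe ILMN_2588056 and 155 with that alignment and no offset (53 higher, 102 lower). Alignment on the median of the kept probes gave 76 higher and 277 lower. Without 1 array, 0 to 10 passed, in fits whose lone array is assumed to vary like the other group. Glycolytic probes that passed numbered 0 as reported and 1 under the kept-probe alignment (Tpi1) or with trend and robust estimation (Pfkl). Their median log2 fold change, 0.18 as reported, was -0.51 under the all-probe alignment and -0.065 under the kept-probe alignment. The median of all kept probes was -0.06 as reported, -0.39 and 0.05 in the same order. Under the all-probe alignment the log2 fold change was -0.62 and -0.32 for Gapdh (ILMN_2588056 and ILMN_1377924), -0.092 for Pgam1 and -0.51 for Ldha. Under the kept-probe alignment it was 0.31 for Pfkp, -0.18 for Gapdh (ILMN_2588056) and -0.065 for Ldha. With arrays aligned on Gapdh it was 0.49 for Pfkp and 0.13 for Gfpt2, and with no offset 0.041 for Pfkp. Leaving out 1 array gave -0.19 (where the microvesicle array left did not detect it) to 0.14 for Pfkp and -0.54 to 0.0066 for Gfpt2. Pfkl and Pfkp gave no value where detection on all 4 arrays was asked. The cause of these shifts was not tested. The replicate numbers were not shown to pair the samples (correlation of same-numbered deviations -0.13). The replicate block gave 313 probes overall and 0 glycolytic probes, and changed no call among them. Crossed numbers gave 396 and 0.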
